A study of Mus musculus with 3 samples.

Results

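The fibroblasts (FBs) of the mouse ventricle that carried transcripts of both Cd248 and Pi16 are described. They were 220 of 6915 non-cardiomyocytes (non-CMs) and 220 of 1419 FBs. Members were selected on their own measured counts of unique molecular identifiers (UMIs), each of which stands for 1 captured transcript. A cell with at least 200 genes was an FB when Col1a1, Col1a2 and Pdgfra together gave at least 3 UMIs, and more than 2 times the sum of each of 3 other sets. Those sets were endothelial (Pecam1, Cdh5, Kdr, Egfl7), blood (Ptprc, Tyrobp, C1qa) and mural (Myh11, Rgs5, Vtn). An FB was a member with at least 1 UMI of Cd248 and 3 of Pi16, at most 2 of Inmt and Gdf10 together, at most 1 of Wif1, Comp and Chad together, and at most 4 of Postn, Thbs4 and Cilp together.

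The hearts were of wild-type C57BL/6JJcl mice in 3 phases. One library was of healthy hearts (TAC 0 weeks), one was of adaptive hypertrophy at 2 weeks of transverse aortic constriction (TAC), and one was of heart failure at 12 weeks of TAC. TAC narrows the aortic arch and loads the left ventricle with pressure, and the operated mice were male and 8 weeks old at surgery. The age of the healthy mice is not given in the sources used here. The atria were cut away, the ventricles were digested with collagenase, cells were cleaned on Percoll without a sort, and all cells other than CMs were profiled by droplet-based 3′ scRNA-seq. With 1 library per phase, phase and library cannot be told apart, and no test between phases or between cells was made.

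Adventitial FBs sit in the outer coat of arteries and veins and in the connective tissue that follows the vessels. In many organs they are known by Pi16, a secreted peptidase inhibitor, together with Dpp4 and Ly6a, and they hold genes of elastic fibres and hyaluronan. Cd248 (endosialin) is a transmembrane glycoprotein of perivascular FBs, and FBs with Pi16 and Dpp4 are often placed at the origin of other FB states. Pressure overload is known to bring out an activated FB state, marked by Postn, Cthrc1 and Tnc.

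The healthy library held 207 of the 220 members, the 2-week library 2 and the 12-week library 11. The cells of the 3 libraries gave 12287823, 4465929 and 1712728 UMIs at 0, 2 and 12 weeks, with medians of 2589, 1495 and 1434 UMIs per cell. Members gave 746628, 4350 and 25803 UMIs, with medians of 3502, 2175 and 2245 per cell. Other FBs had medians of 2960, 2005 and 2695. Mitochondrial genes took a median of 2.54%, 7.70% and 8.39% of the UMIs of members, against 2.58%, 5.44% and 3.78% in other FBs. The levels at 2 weeks therefore rest on 2 cells, and those at 12 weeks on few counts: 3 UMIs, the floor used here, stand for 4.02 UMIs per 1000000 (CPM) in healthy members, 690 CPM at 2 weeks and 116 CPM at 12 weeks. No cell barcode of a member was shared between libraries, and no member was called a doublet.

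The label was read against 4 marker genes, of which Cd248 and Pi16 are part of the rule and Basp1 and Emilin2 are not. Cd248 (chr19:5068078-5070682, plus strand, mm10) was at 615 CPM in healthy members, 1379 at 2 weeks and 775 at 12 weeks, and other FBs had 80.5, 151 and 93.0 CPM. Pi16 (chr17:29317680-29330593, plus strand) was at 4901 CPM in healthy members and 1988 CPM in other healthy FBs. Both differences were set by the rule. In healthy endothelial cells (ECs) and blood cells (BCs), which should lack both genes, Cd248 gave 4.15 and 8.57 CPM and Pi16 gave 123 and 73.4 CPM. The source of those counts was not tested.

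Basp1 (chr15:25363277-25413764, minus strand), a membrane-bound protein of growing cell edges, was at 95.1 CPM in healthy members against 29.7 CPM in other healthy FBs, a ratio of 3.20 (95% counting interval 2.32 to 4.41). It was found in 42 of 207 members (20.3%) and in 6.61% of other FBs, or in 8.70% and 2.52% when each cell was thinned to 1000 UMIs, and in 0.493% of ECs unthinned at a median of 2337 UMIs. Emilin2 (chr17:71252172-71311978, minus strand), a glycoprotein of elastic fibres, was at 139 against 40.4 CPM (3.45, 2.64 to 4.50) and in 30.9% against 10.8% of cells, or 13.5% against 4.72% when thinned. BCs had 241 CPM of Basp1 and 39.9 CPM of Emilin2, so neither marker alone tells a member from a BC. At 12 weeks Basp1 had no UMI in the 11 members, and Emilin2 was at 155 CPM from 4 UMIs in 3 cells, against 38.6 CPM in other FBs. Neither gene had a UMI in the 2 members at 2 weeks. The 2 markers outside the rule were thus both higher in members in the healthy library, Emilin2 alone on 4 UMIs at 12 weeks, and neither at 2 weeks. They came with the label and were chosen with earlier results of these cells known, so they are no independent support for it. Intervals here and below cover counting error only and treat each UMI as independent.

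Cells of other types left little trace in healthy members. Summed over 7 endothelial markers members had 240 CPM and other FBs 300 CPM, and Tie1 was at 0. Over 7 blood markers the values were 197 and 278 CPM, with Ptprc at 0. Over 6 mural markers they were 46.9 and 55.9 CPM, and over 6 CM markers 53.6 and 39.2 CPM. Schwann cell markers gave 5.36 CPM in members and 58.1 CPM in other FBs, with 3 of 5 at 0. Mesothelial markers gave 6.70 and 29.4 CPM, with 6 of 7 at 0 in members and Wt1 the only one found. None of these sums was more than 1.5 times higher in members than in other FBs. The endothelial, blood and mural sums include the genes of those types that the FB rule holds down, Ptprc among them. Their low levels in members and other FBs were thus partly set by the rule, while the CM, Schwann and mesothelial markers had no part in it.

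Members were 17.8% of healthy FBs (207 of 1160, exact 95% interval 15.7 to 20.2%), 2.06% of FBs at 2 weeks (2 of 97, 0.251 to 7.25%) and 6.79% at 12 weeks (11 of 162, 3.44 to 11.8%). Both intervals after TAC lay below that of the healthy library. FBs themselves were 29.8%, 4.35% and 20.5% of all cells, so members were 5.32%, 0.0897% and 1.39% of all cells.

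The size of the gaps between those shares turned on the upper limits, and their order did not. With the limits ignored, FBs that held Cd248 and Pi16 were 295 of 1160 (25.4%, 23.0 to 28.0%) in the healthy library, 15 of 97 (15.5%, 8.92 to 24.2%) at 2 weeks and 29 of 162 (17.9%, 12.3 to 24.7%) at 12 weeks. Of these cells with both genes, 70.2%, 13.3% and 37.9% met all limits. The limit on Postn, Thbs4 and Cilp, genes of activated and tendon-like FBs, was passed by 76 of 295 (25.8%), 11 of 15 (73.3%) and 13 of 29 (44.8%). Over all FBs of each library it was passed by 20.1%, 51.5% and 33.9%, so cells with the pair and FBs at large passed it in the same order of phases. The limit on Wif1, Comp and Chad was passed by 19, 4 and 9 cells with both genes, and that on Inmt and Gdf10 by 4, 0 and 0. The share of members at 2 and 12 weeks is therefore no count of how many cells with the pair were there.

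The shares also moved with thinning, since the rule reads whole UMIs. When each cell was thinned to 1000 UMIs, shallower cells were left out and both the FB rule and the limits of the members were applied again to the thinned counts, 59 of 750 healthy FBs (7.87%, 6.04 to 10.0%), 2 of 63 at 2 weeks (3.17%, 0.387 to 11%) and 6 of 94 at 12 weeks (6.38%, 2.38 to 13.4%) met the rule. With the limits ignored as well, the shares were 9.07%, 6.35% and 9.57%. Shallower FBs were 0, 23 and 12 of those in the 3 libraries. The smaller number of FBs after thinning thus came mostly from the FB rule itself at 0 and 12 weeks. At 2 weeks it came mostly from the shallower cells left out. The denominator moved in all 3 libraries, and the number of members moved at 0 and 12 weeks. At equal depth the 3 intervals overlapped under both readings.

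**Figure D1:**
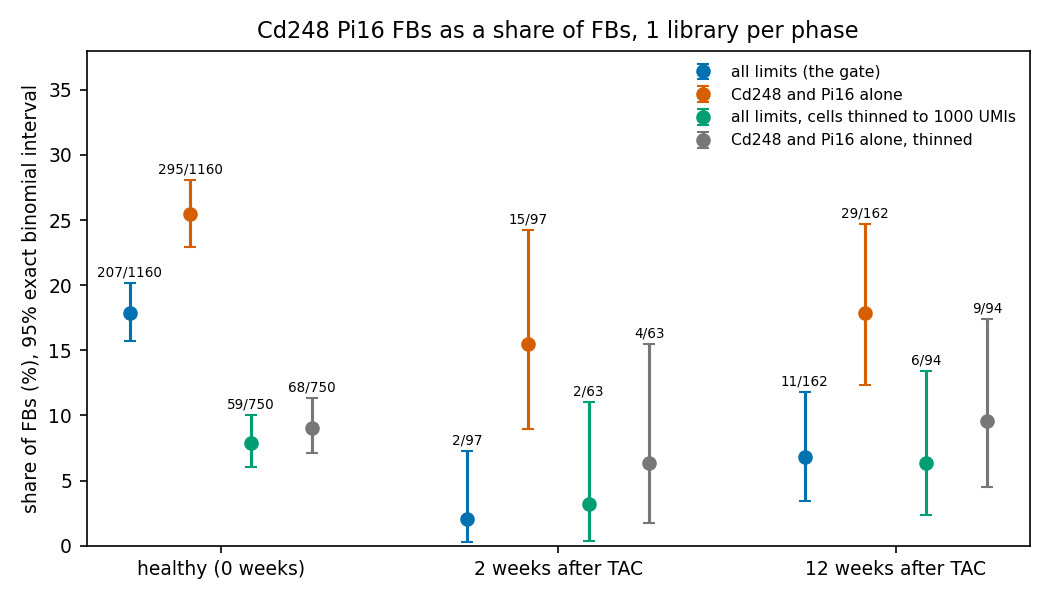
The share of FBs in percent (y axis) is plotted for the healthy, 2-week and 12-week libraries, with 95% exact binomial intervals and the cell counts above each bar. Under all limits the shares were 17.8%, 2.06% and 6.79%, and after thinning to 1000 UMIs the intervals of the 3 libraries overlapped.

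Against the other 953 healthy FBs, members had higher levels of adventitial genes such as Ly6a, Scara5 and Efemp1 and of Ugdh, Gfpt2 and Has1, which act in hyaluronan synthesis, and lower levels of Apoe, Mgp and Fmod. The ratio of summed CPM was at least 2, with the interval past 1, for 170 of 9663 genes measured with at least 20 UMIs (1.76%), and at most 0.5 for 274 (2.84%). The genes of the rule are left out of these counts. Members were chosen on other counts of the same cells, so these ratios describe the cells and test nothing.

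Efhd1, a calcium-binding protein of mitochondria, was at 170 CPM in healthy members and 38.2 CPM in other healthy FBs, a ratio of 4.45 (3.44 to 5.76). It was found in 80 of 207 members, or 38.7%, and in 9.02% of other FBs, thinned to 14.98% and 3.25%. At 12 weeks it was at 155 against 35.1 CPM. Stmn4, of the stathmin family that binds tubulin, was at 129 against 29.1 CPM (4.43, 3.29 to 5.96) and in 19.3% against 5.98% of cells, thinned to 8.70% and 1.68%. Both ratios were above those of Basp1 and Emilin2, with overlapping intervals. Dbn1, which binds actin filaments, was at 190 against 72.6 CPM (2.62, 2.11 to 3.24) and at 310 against 89.5 CPM at 12 weeks. These 3 genes of the cell interior had no part in the rule.

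At the cell surface, Ly6a (Sca-1), a GPI-anchored protein of progenitor-like FBs, was at 1315 against 480 CPM (2.74, 2.53 to 2.97) in the healthy library and at 1124 against 716 CPM at 12 weeks. Healthy ECs had 1484 CPM of Ly6a, so the gene sets members apart among FBs and not among all cells. Ly6c1, of the same family, was at 245 against 84.3 CPM (2.91, 2.40 to 3.52), and at 465 against 123 CPM at 12 weeks. Reads of the Ly6 genes may be shared between near-identical copies, which makes their split uncertain. Thy1, another GPI-anchored protein, was at 131 against 45.2 CPM (2.91, 2.23 to 3.79), with no UMI in the 11 members at 12 weeks. Dpp4, a surface peptidase that marks Pi16 FBs in other organs, was at 40.2 against 6.95 CPM, the ratio of 5.78 (3.23 to 10.5) resting on few counts. Lrrn4cl, a leucine-rich repeat membrane protein, was at 170 against 54.0 CPM (3.15, 2.48 to 3.99) and at 233 against 49.1 CPM at 12 weeks. Scara5, a scavenger receptor that takes up ferritin, was at 367 against 118 CPM (3.10, 2.64 to 3.63) and in 59.4% against 26.8% of cells, thinned to 31.9% and 10.5%. Adgrd1, an adhesion G protein-coupled receptor, was at 114 against 41.4 CPM (2.75, 2.07 to 3.64). Of 17 measured surface genes of FBs in a fixed list, 6 were higher (Ly6a, Ly6c1, Thy1, Dpp4, Axl, Cadm3) and 0 lower, at a median log2 ratio of 0.05 against 0.01 over all genes. The surface genes as a group thus stood where all genes did, with 6 members well above.

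Several of the genes ranked highest act in the synthesis of hyaluronan, the large sugar chain of loose connective tissue. Ugdh, which makes the UDP-glucuronate that hyaluronan is built from, was at 1201 against 524 CPM (2.29, 2.11 to 2.49) in the healthy library, and at 2480 against 307 CPM at 12 weeks. Gfpt2, which opens the hexosamine route to the other sugar of hyaluronan, was at 473 against 176 CPM (2.69, 2.35 to 3.08), and at 659 against 158 CPM at 12 weeks. Has1, a hyaluronan synthase, was at 245 against 99.2 CPM (2.47, 2.05 to 2.98), with no UMI in the members at 12 weeks. Has2 was at 56.3 against 24.9 CPM (2.26). These 4 genes were grouped after their values were seen, and all were past 2-fold in the healthy library. In the list of proteoglycans and hyaluronan genes, of 19 measured, the 2 synthases were the only ones higher, 3 were lower (Fmod, Gpc3, Prg4), and the median log2 ratio was -0.18.

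Among secreted and matrix proteins, Efemp1 (fibulin-3), of elastic tissue, was at 133 against 43.9 CPM (3.02, 2.31 to 3.94), and Pla1a, a phospholipase specific for phosphatidylserine, was at 295 against 108 CPM (2.73, 2.29 to 3.24). Of 21 elastic fibre and microfibril genes, Efemp1 and Emilin2 were higher, Fbln5 and Ltbp2 were lower, and the median log2 ratio was -0.12. The elastic fibre genes did not move as a group in either direction. In the list of collagens and associated proteins, 0 of 16 genes were higher and Col11a1 and Col12a1 were lower, and Col3a1 (0.947) stood within the limits. Col1a1 (0.785), a gene of the FB rule and so not among the 16, did as well. Of 14 basement membrane genes 0 were past the limits either way. Pgf, a ligand of the VEGF family, was at 218 against 90.3 CPM (2.42, 1.98 to 2.94), and Sema3c, a secreted semaphorin, was at 251 against 103 CPM (2.43). Those were the 2 higher of 26 measured ligands, of which 6 were lower (Figf, Apoe, Apod, Ptn, Mdk, Pdgfa). Ackr3, a scavenging receptor for Cxcl12, was at 434 against 214 CPM (2.03). It was the 1 higher of 19 genes of chemokines, cytokines and their receptors. Cxcl14, Ccl11 and Ccl19 were the 3 lower ones. Gli1, a transcription factor of hedgehog signalling known from perivascular mesenchymal cells, was at 17.4 against 7.26 CPM (2.40, 1.12 to 4.94, 13 UMIs in members) and was the 1 higher of 25 transcription factors, of which Tbx20 and Meox1 were lower.

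A further list of adventitial genes gave the plainest group result. Of 24 measured, 11 were higher in healthy members and 0 lower, at a median log2 ratio of 0.98 against 0.01 over all genes. Summed over the list, members had 15480 CPM and other FBs 9030 CPM. Anxa3 (295 against 132 CPM, 2.24) and Pcsk6, a proprotein convertase (710 against 335 CPM, 2.12), were among the 11. Clec3b (tetranectin), at 2294 against 1164 CPM (1.97, 1.86 to 2.09), and Cd55, a complement inhibitor, at 295 against 148 CPM (1.99, 1.69 to 2.35), stood just below the fold limit. Fbn1 (1.68), Igfbp6 (1.69), Cd34 (1.51) and Mfap5 (1.48) were above 1 and short of it, and Dpt, a gene of FBs at large, had a ratio of 1.098. The list was assembled with the label known and with earlier results of these cells in view.

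**Figure D2:**
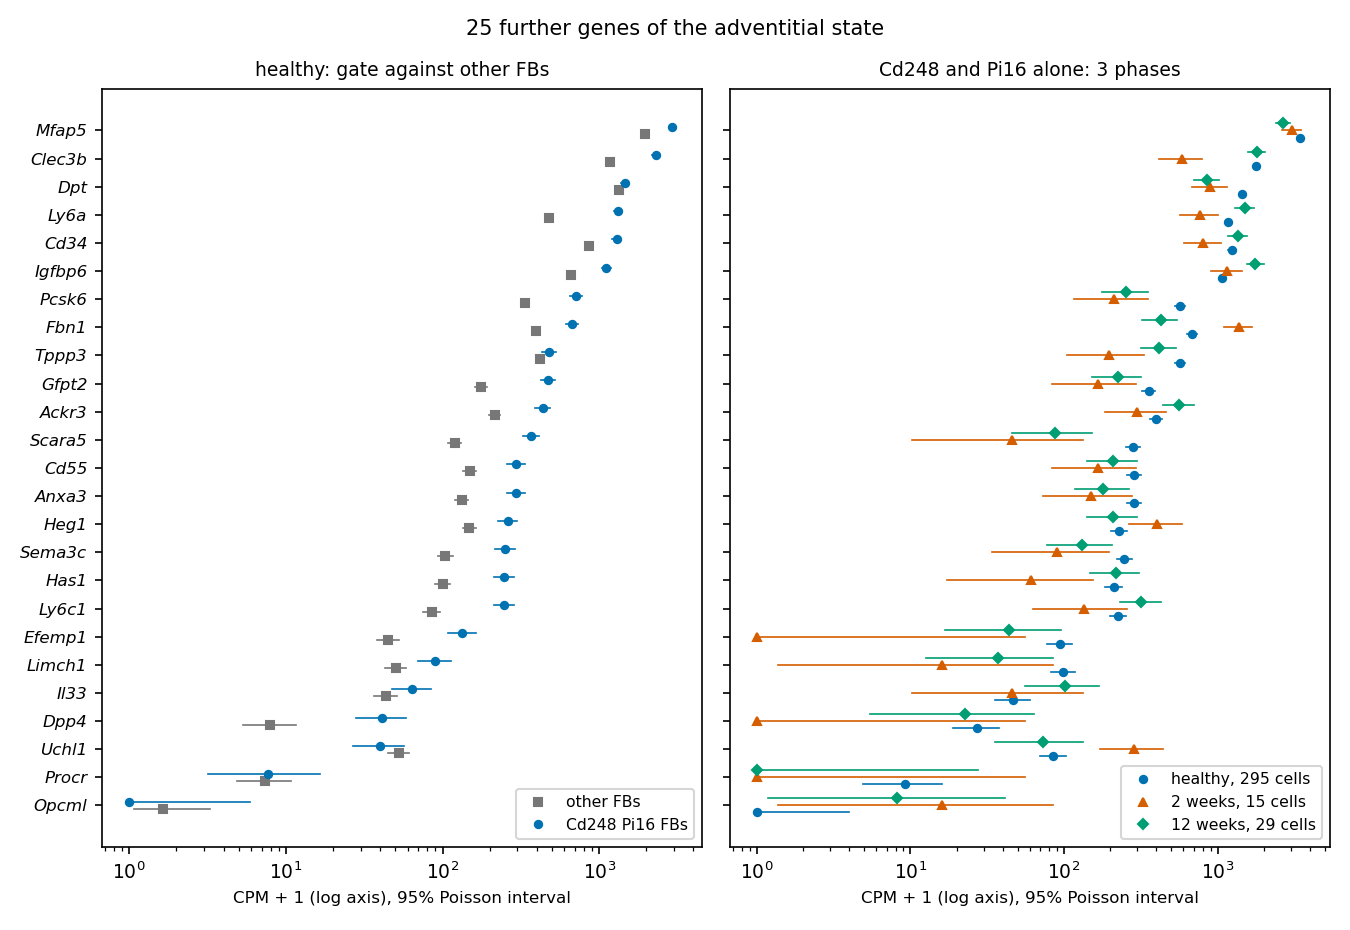
Levels of 25 further adventitial genes are plotted as CPM + 1 on a log axis with 95% Poisson intervals. On the left, healthy members (circles) stand to the right of other healthy FBs (squares) for most genes. On the right, cells with Cd248 and Pi16 and the limits ignored are shown for 295, 15 and 29 cells at 0, 2 and 12 weeks, and Scara5, Sema3c and Efemp1 stand lower at 2 weeks.

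The genes lower in healthy members were led by secreted proteins. Apoe, the lipid carrier, was at 702 CPM in members and 3525 CPM in other FBs (0.199, 0.182 to 0.217). Mgp, the matrix Gla protein that holds back calcification, was at 3527 against 8465 CPM (0.417, 0.400 to 0.434). Fmod (fibromodulin), a collagen-binding proteoglycan of tendon and valve, was at 5.36 against 185 CPM (0.0289, 0.00785 to 0.0744), and Clu, a secreted chaperone, at 16.1 against 153 CPM (0.105, 0.0540 to 0.185). Cytl1, a small secreted protein of cartilage, was at 53.6 against 229 CPM (0.234), and Ptn, a heparin-binding growth factor, at 24.1 against 110 CPM (0.219). Dkk3, of the dickkopf family, was at 63.0 against 246 CPM (0.256), and Cpe, which trims peptide hormones, at 38.8 against 141 CPM (0.275). The 6 lower of 19 measured regulators of Wnt, BMP and TGF-β signalling were Sfrp2, Dkk3, Wisp2, Chrdl1, Fst and Rspo3, and 0 were higher. The list's median log2 ratio was -0.20. Of 10 complement genes C4b, Cd59a and Clu were lower and 0 higher, and of 9 genes of IGF signalling Igfbp3 was lower (0.0687).

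Genes of the activated FB were also lower. Of 20 measured, 7 were lower (Tagln, Ctgf, Cthrc1, Tnc, Meox1, Ddah1, Spp1) and 0 higher, at a median log2 ratio of -0.72. Cthrc1, a secreted protein of scar FBs, was at 2.68 against 28.1 CPM (0.0953), below the floor of 4.02 CPM in members. Tnc (tenascin-C) had no UMI in members, with 23.4 CPM in other FBs. Ctgf, a matricellular target of TGF-β and YAP, was at 91.1 against 190 CPM (0.479). The limit on Postn, Thbs4 and Cilp is itself a limit on activated FBs, so the direction of this list was largely set by the rule.

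Other FBs are a mixture, and healthy members were therefore also set against parts of it. The first part was 618 healthy FBs that met all 3 upper limits and lacked the pair. There 173 of 8460 genes were higher (2.04%) and 206 lower (2.43%). The adventitial list again stood apart, with 16 of 23 measured genes higher and 0 lower and a median log2 ratio of 1.13 against 0.03 over all genes. Efhd1 had a ratio of 6.26 (4.43 to 8.97), Stmn4 of 9.07 (5.75 to 14.8), Ly6a of 3.05 (2.76 to 3.36) and Ugdh of 2.25 (2.05 to 2.47). The activated FB list no longer stood apart, with 0 of 16 past the limits either way and a median of -0.16. Fmod (0.394, 0.0991 to 1.15), Dkk3 (0.582, 0.413 to 0.806) and Fibin (0.820, 0.673 to 0.993) stood closer to 1. Prg4 (lubricin) turned round, from 0.305 against all other FBs to 1.70 (1.20 to 2.41). Apoe (0.202, 0.184 to 0.2204) and Mgp (0.427, 0.409 to 0.445) kept the ratios they had against all other FBs.

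The second part was 118 healthy FBs that lacked the pair and passed the limit on Postn, Thbs4 and Cilp alone. There 184 of 6553 genes were higher in members (2.81%) and 192 lower (2.93%). Of the adventitial list 12 of 23 were higher, and the list stood at a median of 1.12 (log2) against -0.01 over all genes. Ly6c1 had a ratio of 5.64 (3.65 to 9.12) and Scara5 of 4.32 (3.14 to 6.06), and Adgrd1 had the smallest of the named higher genes, 1.67 (1.12 to 2.55). The activated list had 9 of 19 lower and a median of -0.82, a direction largely set by choosing this part over the limit that members met. Of 7 cell cycle genes measured, 6 (Top2a, Ccnb1, Ccnb2, Cdk1, Ube2c, Pcna) were lower in members, with a list median of -1.61. Against all other FBs the same list had Mki67 higher and 0 lower of 8, with a median of -0.56, and against FBs within the limits Ube2c was higher and 0 lower of 2. Clu (0.774, 0.312 to 1.94) and Cxcl14 (0.914, 0.586 to 1.44) could not be told apart between the groups at this depth, while Apoe (0.378, 0.340 to 0.421) and Ptn (0.1501, 0.0849 to 0.252) were lower in members.

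**Figure D3:**
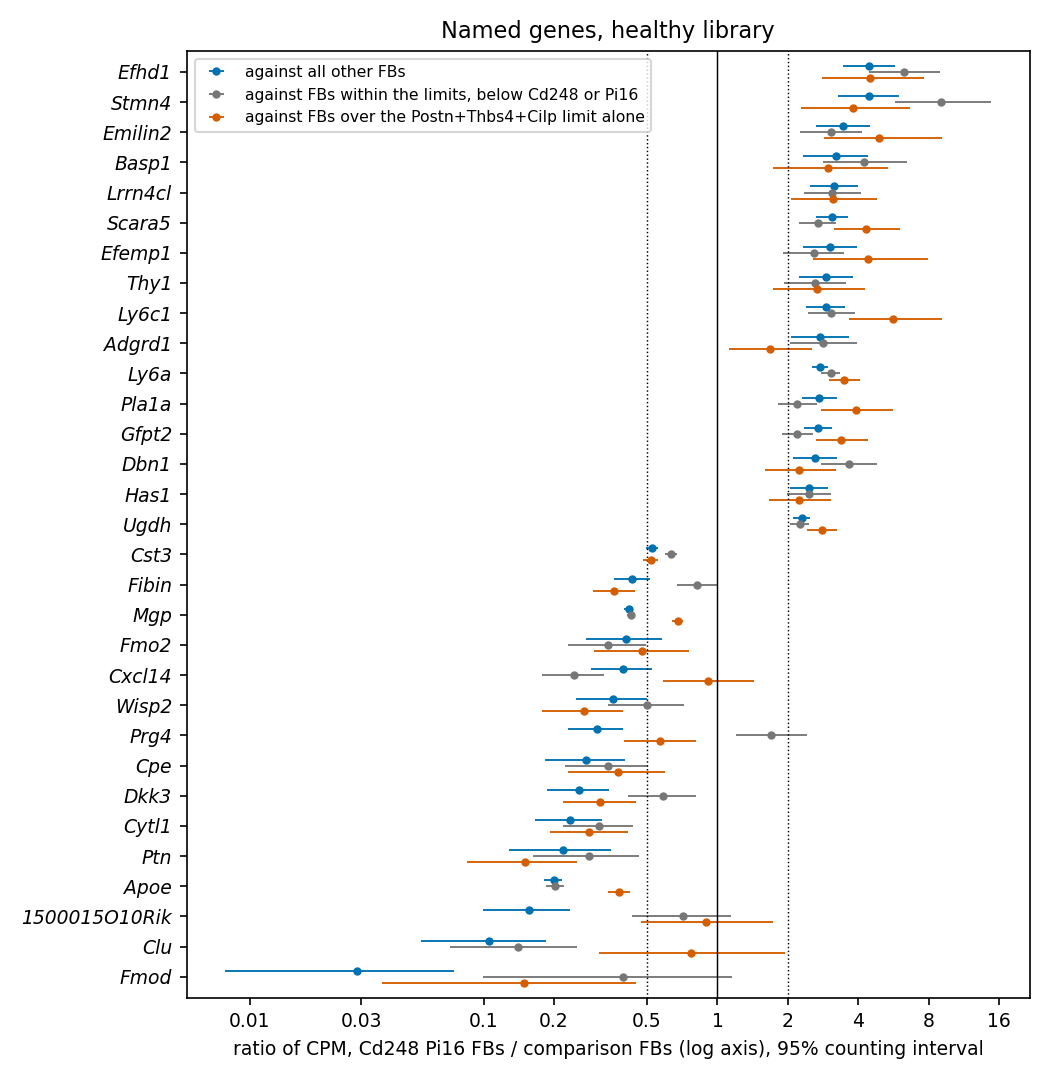
The ratio of CPM in healthy members to CPM in comparison FBs is plotted on a log axis with 95% counting intervals for the markers outside the rule and the 15 named genes each way. Colours stand for the comparison FBs (all others, those within the limits, those over the limit on Postn, Thbs4 and Cilp alone), and dotted lines mark 0.5 and 2. The higher genes keep their side in all 3 comparisons, while Prg4, Fmod, Clu and Cxcl14 move between them.

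The edge of the rule showed how the groups meet. Of 1160 healthy FBs, 975 had at least 1 UMI of Pi16 and 747 at least 3, but only 334 had a UMI of Cd248, so Cd248 decided most of the membership. Of the FBs with at least 3 UMIs of Pi16, 452 had none of Cd248. Among members, 107 of 207 had exactly 1 UMI of Cd248, and the highest had 10. Pi16 ran from 3 to 93 UMIs with a median of 11. The 13 cells with exactly 3 UMIs of Pi16 had 127 CPM of Emilin2, 31.7 CPM of Basp1, 444 CPM of Ly6a and 317 CPM of Scara5. The 10 cells just outside, with 2 UMIs of Pi16 and the other conditions met, had 62.9, 31.5, 629 and 94.4 CPM of the same genes. The cells just outside were also deeper, with a median of 2865.5 against 1680 UMIs. With 13 and 10 cells, the levels on both sides rest on few UMIs, and the difference was not tested.

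Members were not alike among themselves. The 10 genes with the widest spread over the 207 healthy members, relative to what each cell's depth gives, were Gsn, Malat1, Mgp, Ccl2, Ccl7, Mt1, Apoe, Actb, Eln and Mfap4. The dispersion (variance over that of pure counting) was 1.16 at the median of 1033 genes with at least 100 UMIs. Gsn (gelsolin), which severs actin filaments, had a dispersion of 47.7, with a median of 83 UMIs per cell and up to 445. It was in every member, so its spread is one of level. Mgp (34.8) was in 170 of 207 members, and the top 20 cells held 52.0% of its UMIs. Apoe (14.8) was in 113 members, and the top 20 cells held 67.9% of its UMIs. Mgp and Apoe, both lower in members than in other FBs, were thus high in a few members.

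The chemokines Ccl2 and Ccl7, which draw monocytes, were concentrated further. Ccl2 (dispersion 26.6) was in 29 members, and 1 cell held 49 of its 115 UMIs. Ccl7 (17.9) was in 34 members with 214 UMIs, and the top 20 cells held 93.5% of them. Eln (elastin, 13.7) was in 96 members with up to 56 UMIs in 1 cell, and Mfap4, a microfibril protein that binds elastin, (11.3) was in 98. Over the 207 cells, which share 1 library, Spearman's rho was 0.41 between Gsn and Mgp, 0.40 between Mgp and Apoe, 0.34 between Gsn and Apoe, 0.32 between Eln and Mfap4, and 0.18 between Ccl2 and Ccl7. Gsn and Actb had a rho of -0.24. These values are descriptions of cells of 1 library with depth differences between them.

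**Figure D4:**
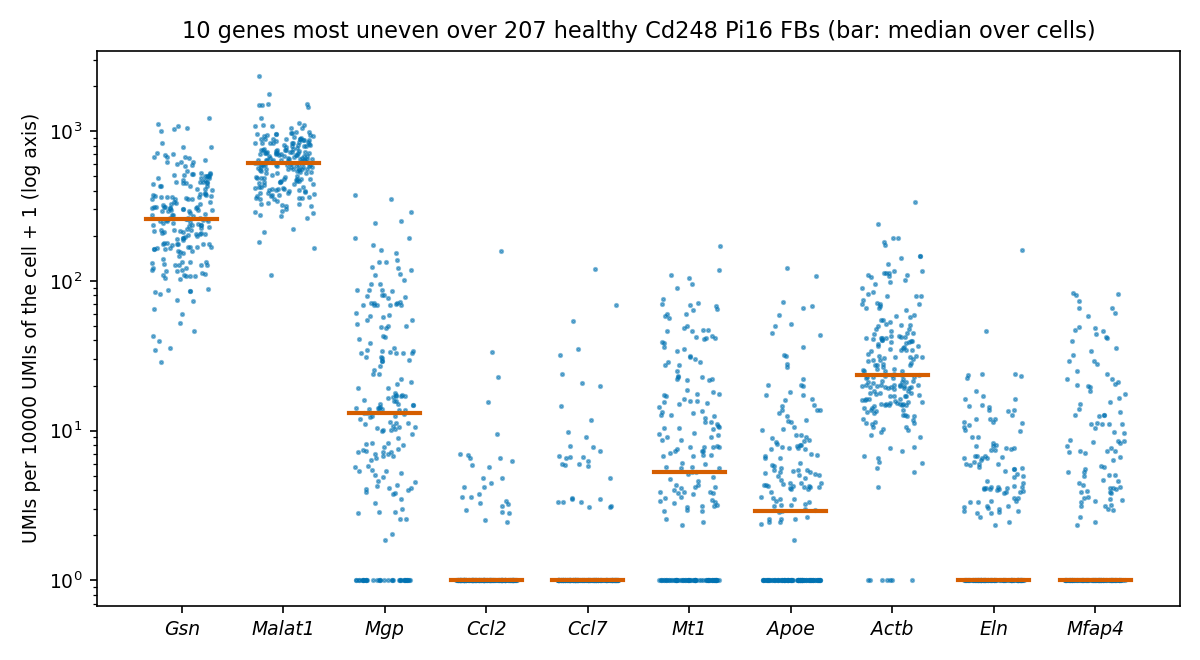
UMIs per 10000 UMIs of the cell, plus 1, are plotted on a log axis for the 10 genes with the widest spread, with 1 point for each of the 207 healthy members and a bar at the median. Gsn and Malat1 are present in every cell, while Ccl2, Ccl7, Eln and Mfap4 have their median at 0 and a tail of few high cells.

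The 11 members at 12 weeks had from 602 to 5335 UMIs, from 3 to 28 UMIs of Pi16 with a median of 16, and from 1 to 5 of Cd248. Against the 207 healthy members, 161 of 4914 genes were higher (3.28%) and 58 lower (1.18%), at a median log2 ratio of -0.19 over all genes. Immediate early and complement genes had the highest medians of the gene lists other than cell type markers. Of 15 immediate early genes, 5 were higher (Fos, Junb, Ier3, Nr4a1, Zfp36) and 0 lower, with a median of 0.56, and Fos was at 7208 against 3360 CPM (2.15). Such genes also answer to tissue digestion, which was not tested here. In other FBs 0 of the same 15 genes were higher at 12 weeks and 1 was lower (median 0.01). ECs had 0 higher and 3 lower (-0.44), and BCs had 0 higher and 2 lower (0.55). Of 7 complement genes C1s1 and C3 were higher and 0 lower, with a median of 0.95. The adventitial list had Ackr3 higher and Has1 and Scara5 lower of 23, and the activated list had Ctgf higher, at 620 against 91.1 CPM (6.81), with Mfap4 and Sparc lower, of 14. Of 22 transcription factors Tbx20, Gata4, Klf2 and Cebpb were higher and 0 lower.

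Most of the genes named for a higher level at 12 weeks were higher by a similar factor in other cell types. Gm10116, a ribosomal protein-like copy whose reads cannot be placed with certainty, had a ratio of 33.1 in members, 27.1 in other FBs, 18.9 in ECs and 24.4 in BCs. Gstp1, a glutathione transferase with a near-identical neighbour, had ratios of 20.4, 25.4, 36.8 and 16.7. Gm10076 had ratios of 8.09, 9.45, 10.2 and 9.92, and Gm10073 and AY036118 were also higher in all 4 groups of cells. These 5 genes follow the 12-week library rather than the members. H2-Q4, an MHC class I gene, had a ratio of 9.65 in members (12 UMIs) against 4.00 in other FBs, 2.29 in ECs and 2.46 in BCs.

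Apoe was at 6123 CPM in the 12-week members against 702 CPM in healthy ones (8.73, 7.26 to 10.4), with a ratio of 1.62 in other FBs. Of its 158 UMIs, 130 lay in 1 cell of 5335 UMIs and 21 in another. Without the first cell the ratio was 1.95 (1.28 to 2.85). The same cell held 84 UMIs of Mgp and 10 of Cytl1, genes that were low in healthy members, and only 4 of Pi16. The Apoe value is therefore that of 1 cell.

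Among genes lower at 12 weeks, Mfap4 was at 77.5 against 875 CPM (0.0886), while other FBs had a ratio of 0.825. Sparc, a collagen-binding matricellular protein, was at 1860 against 5897 CPM (0.315), and its ratio was 0.415 in other FBs and 0.547 in ECs. Ifi27l2a, an interferon-induced gene, was at 349 against 2860 CPM (0.122), with 0.448 in other FBs, 0.321 in ECs and 0.464 in BCs. Lpl, lipoprotein lipase, was at 38.8 against 417 CPM (0.0930) from 1 UMI. Tsc22d3, a glucocorticoid-induced gene, had no UMI in the 11 cells and 251 CPM in healthy members. Sparc and Ifi27l2a were thus lower in cells of other types too.

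The 2 members at 2 weeks had 3146 and 1204 UMIs. The first held 5 UMIs of Cd248, 38 of Pi16 and 10 of Ly6a, and the second 1, 16 and 2. Against healthy members 115 of 4818 genes were higher (2.39%) and 25 lower (0.519%), but a gene with no UMI in these 2 cells has an upper bound far above 1, so the list of lower genes is short by design. Complement C3 was at 2069 CPM from 9 UMIs against 249 CPM, and C1ra was also among the named higher genes. Mgp was at 690 CPM from 3 UMIs against 3527 CPM (0.196). Sec24c, the first by rank, rested on 4 UMIs. Of the adventitial list 7 of 23 were higher. In the 15 cells with both genes described next, C3 had a ratio of 1.40 (0.831 to 2.24), so its level in the 2 members was not that of the wider set.

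A wider view by phase came from all FBs with Cd248 and Pi16, limits ignored, which were 295, 15 and 29 cells with medians of 3926, 3312 and 3314 UMIs. Here Cd248 (537, 658 and 453 CPM) and Pi16 (4388, 3049 and 4021 CPM) were within 2-fold of the healthy level at both times. The cells were chosen on both genes in each library, so these levels were partly set by the rule. At 2 weeks 380 of 6575 genes were higher (5.78%) and 159 lower (2.42%), with a median log2 ratio of -0.09 over all genes. Genes of the activated FB, collagens and elastic fibre genes were higher, and part of the adventitial list was lower.

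Of 19 measured activated FB genes, 13 had ratios past 2 at 2 weeks and 0 were lower. The list median was 1.64 on the log2 scale. FBs that lacked the pair, 865, 82 and 133 cells at 0, 2 and 12 weeks, had a median of 0.32 on this list. Cthrc1 was at 254 CPM (17 UMIs in 7 of 15 cells) against 5.71 CPM in healthy cells with both genes (44.5, 17.5 to 127), and its ratio was 2.59 in FBs without the pair. Lox, which crosslinks collagen and elastin, was at 448 against 11.4 CPM (39.3, 20.2 to 80.2) in 8 of 15 cells, with 6.30 in FBs without the pair. Ctgf was at 2257 against 188 CPM (11.98, 9.69 to 14.8) in 9 of 15 cells, with 7.62. Tnc was at 194 against 10.6 CPM (18.3, 7.83 to 42.9) in 4 cells, with 0.630 (0.127 to 1.93). Tagln, an actin-binding protein of smooth muscle and myofibroblasts, was at 389 against 76.7 CPM (5.07), with 1.07. Acta2 was at 239 against 77.5 CPM (3.09, 1.70 to 5.28) in 3 cells, with 0.387 (0.165 to 0.774). Fn1 (fibronectin) was at 1016 against 229 CPM (4.43, 3.35 to 5.80) in 12 cells, with 2.71. Cthrc1, Lox, Ctgf and Fn1 were thus higher in both sets of FBs, and Tnc, Tagln and Acta2 were higher in cells with the pair and not in FBs without it. The difference between the sets was not tested. The sets also differed in Schwann cell markers, all 5 of which were higher at 2 weeks in FBs without the pair (median log2 ratio 2.39). In other FBs these markers summed to 1095 CPM at 2 weeks and 58.1 CPM in the healthy library. The 15 cells with both genes had no UMI of them. Of these 15 cells, 11 passed the limit on Postn, Thbs4 and Cilp, and Postn itself was at 9340 against 1045 CPM.

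In the list of collagens and associated proteins, 10 of 15 genes were higher at 2 weeks and 1 lower. The median log2 ratio was 1.30 against 0.73 in FBs without the pair. P4hb, among the higher genes, and Pcolce2, the lower one, are not collagens themselves. Col3a1 was at 6904 against 2707 CPM (2.55, 2.31 to 2.81) and Col5a1 at 732 against 280 CPM (2.62, 1.90 to 3.54). Col1a1, a gene of the FB rule and so not among the 15, was at 3766 against 1351 CPM (2.79, 2.43 to 3.18). Of 21 elastic fibre genes 10 were higher and Efemp1 was lower, with a median of 0.82 against 0.63 in FBs without the pair. Ltbp2, a TGF-β binding protein of microfibrils, was at 777 against 97.9 CPM (7.94), Fbn1 at 1375 against 681 CPM (2.02, 1.61 to 2.51) and Eln at 837 against 378 CPM (2.21, 1.65 to 2.92). The matrix lists were therefore higher in both sets of FBs at 2 weeks. Of 14 regulators of Wnt, BMP and TGF-β signalling 7 were higher and 0 lower, among them Sfrp2 at 359 against 26.9 CPM (13.3, 7.54 to 23.3) in 4 cells.

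Of 23 adventitial genes, 9 were lower at 2 weeks (Sema3c, Clec3b, Efemp1, Has1, Pcsk6, Limch1, Tppp3, Gfpt2, Scara5) and Fbn1 and Uchl1 were higher. The list median was -0.79 on the log2 scale, against -0.25 in FBs without the pair. Scara5 was at 44.8 against 280 CPM (0.160, 0.0329 to 0.472), Clec3b at 583 against 1775 CPM (0.328, 0.233 to 0.450) and Pcsk6 at 209 against 572 CPM (0.366). FBs without the pair had ratios of 0.210, 0.155 and 0.317 for these 3 genes. Efemp1 had no UMI in the 15 cells, against 93.0 CPM in healthy ones. Ly6a was at 762 against 1174 CPM (0.649, 0.481 to 0.858), Igfbp6 at 1151 against 1072 CPM (1.07, 0.842 to 1.35) and Mfap5 at 3034 against 3467 CPM (0.875, 0.756 to 1.01). The ratios of those 3 adventitial genes were within 2-fold. Of genes outside the list, Gsn was at 6082 against 26700 CPM (0.228), Pgf at 29.9 against 184 CPM (0.163), and Ccl7 had no UMI against 199 CPM. Basp1 (14.9 against 88.9 CPM) and Emilin2 (44.8 against 113 CPM) rested on 1 and 3 UMIs.

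The deepest of the 15 cells held 19.8% of their UMIs. Without it 12 activated genes, 11 genes of the collagen list and 8 elastic fibre genes were higher, and 8 adventitial genes were lower. In the 10 cells with at most 10% mitochondrial UMIs, 11 of 18 activated genes, 10 genes of the collagen list and 8 elastic fibre genes were higher. There 10 adventitial genes were lower. The elastic fibre median was 0.37 in these cells, below the 0.63 of FBs without the pair. The medians of the activated genes (1.67) and the collagen list (1.20) stayed above those of FBs without the pair.

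At 12 weeks, 260 of 6752 genes were higher (3.85%) and 172 lower (2.55%) in the 29 cells with both genes than in the 295 healthy ones, with a median log2 ratio of -0.06 over all genes. The activated list had 3 of 16 higher (Ctgf, Timp1, Meox1) and Fn1 lower, with a median of 0.68 against -0.31 in FBs without the pair. Ctgf was at 604 CPM (3.21, 2.47 to 4.13), between its healthy and 2-week levels, and Meox1, a homeobox factor of activated FBs, at 755 against 290 CPM (2.60). The list of collagens and associated proteins had 0 of 15 higher and 2 lower, with a median of -0.36 against -0.49 in FBs without the pair. Col1a1, a gene of the FB rule and so not among the 15, was at 1510 CPM (1.12, 0.964 to 1.29). Eln was at 245 CPM (0.646, 0.442 to 0.916). The collagen levels of the 2-week library were thus not seen at 12 weeks in either set of FBs.

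Of 23 adventitial genes, 3 were lower at 12 weeks (Pcsk6, Limch1, Scara5) and Il33, an alarmin cytokine, was higher at 101 against 45.7 CPM (2.21, 1.13 to 4.01). Clec3b was at 1798 CPM (1.01, 0.885 to 1.16), Ly6a at 1503 CPM (1.28, 1.10 to 1.48) and Igfbp6 at 1762 CPM (1.65, 1.43 to 1.89), all at or above the healthy level. Scara5 was at 86.3 CPM (0.309, 0.158 to 0.546), and Basp1 (14.4 CPM, 0.162) and Emilin2 (50.4 CPM, 0.444) were lower as well. The level of Basp1 is below the floor of 21.6 CPM in these cells, and that of Emilin2 rests on few UMIs. The other adventitial genes measured were not past the limits at 12 weeks. Of 15 genes of chemokines, cytokines and their receptors 4 were higher (Ccl2, Ccl19, Csf1, Il33) and Ccl7 was lower. Ccl2 was at 331 against 115 CPM (2.88, 2.02 to 4.04) in cells with the pair, while its ratio was 0.183 in FBs without it. Ccl2 was uneven over healthy members (dispersion 26.6), so this interval is too narrow, and the difference between the 2 sets of FBs was not tested. Lpl was at 43.2 against 310 CPM (0.139). The deepest of these cells held 13.9% of the UMIs, and without it the activated list had 3 genes higher and 2 lower.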

How the data were processed

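Non-CMs of 3 ventricle samples, 1 per phase, were profiled with the Chromium Single Cell 3′ v2 kit. The authors counted UMIs per gene and cell, and the submitters' processing notes name Cell Ranger 2.0.0 and mm10. The deposited values are raw UMI counts for 27998 genes, without normalization. The number of mice per library is not given in the sources used here.

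Barcodes with fewer than 200 genes were dropped. UMIs were summed over the cells of a group and divided by the group's total (CPM). A ratio of 2 CPM values has a conditional exact binomial interval, a level an exact Poisson interval and a share a Clopper-Pearson interval, all at 95.0%. A gene was measured when the 2 groups held at least 20 of its UMIs, and a gene was higher (lower) when its ratio was at least 2 (at most 0.5) and the interval did not include 1. List medians are of log2 ratios with 1 CPM added. A level of 0 was read against a floor of 3 UMIs. The exact intervals assume independent UMIs and are too narrow for uneven genes. No p-values were computed, since cells are not replicates.

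Named genes were the 4 markers, the 15 genes each way with at least 50 UMIs and 100 CPM whose interval bound nearest 1 lay farthest from it, 8 each way per phase by the same ranking with at least 20 UMIs over both phases, the 10 most uneven genes, and examples of the lists. Mitochondrial, ribosomal protein and haemoglobin genes and genes of the rule were left out. Genes named outside this rule (the levels of cells with both genes, for example) were chosen after their values were seen. One result that this rule names is not reported here. The members and all lists were chosen with earlier results of these data known, so no list is independent support. Coordinates are from GENCODE M21 (GRCm38), which matched 27645 of the gene identifiers. Doublets were called with Scrublet in scanpy 1.11.5, which marked 0.899%, 0.0896% and 0.631% of cells at 0, 2 and 12 weeks, few for the 2-week library. Python 3.11.15, numpy 2.4.6, scipy 1.17.1, pandas 2.3.3 and matplotlib 3.10.9 were used, and the steps were tested on simulated data. Alternatives were other limits on Pi16, genes and mitochondrial UMIs, no upper limits, thinning to 1000 UMIs, means over cells, and other UMI minimums.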

Additional observations from a re-analysis of the deposited data

Results flagged for a closer look

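Cd55, an inhibitor of complement, and Clec3b, a plasminogen-binding secreted protein, had opposite directions at 2 weeks in members and in other FBs. The ratio of CPM at 2 weeks to that in the healthy library was 3.90 in members and 0.472 in other FBs for Cd55, and 2.61 and 0.164 for Clec3b. Only 2 members stand behind the 2-week values, and the difference was not tested. Other FBs also held Schwann cell markers at 1095 CPM at 2 weeks, against 58.1 CPM in the healthy library. In the 15 FBs that held Cd248 and Pi16 with the limits ignored, Clec3b was lower at 2 weeks (0.328).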

How the results depend on the processing

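Without the upper limits the shares were 25.4%, 15.5% and 17.9% of FBs at 0, 2 and 12 weeks, the genes past the fold limits numbered 432 at 12 weeks (219 with them) and 539 at 2 weeks (140), and the ratio of Mgp at 2 weeks turned from 0.196 to 1.39. Without the limit on Postn, Thbs4 and Cilp alone, a choice made after the data were seen, the shares were 23.4%, 11.3% and 12.3%. With each cell thinned to 1000 UMIs the healthy share was 7.87%, 57 genes were lower than in other FBs (274 unthinned), 37 and 14 genes were past the limits at 12 and 2 weeks, and the 12-week ratio of Apoe turned to 0.317 and the 2-week value of Tcp11l2 to 0. Thinning left fewer FBs, members and UMIs. With at least 50 UMIs required, 94 genes were higher than in other FBs (170 with 20) and 90 were past the limits at 2 weeks, over fewer genes tested. Other minimums of Pi16, at least 500 genes, at most 10% mitochondrial UMIs and removal of called doublets moved no share of members and no count of genes over members by more than its own tolerance (the counting interval, or 1.5 times). Of the ratios against other FBs, 217 recomputed values lay within the counting interval and 47 outside it, with none reversed. List medians were less steady: 31 recomputed values moved by more than 0.1 (log2) and 113 did not against other FBs, 57 and 78 at 12 weeks, and 65 and 70 at 2 weeks. No paired analysis was possible because each phase is 1 library and the replicate numbers only name samples.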
